A study of Mus musculus with 15 samples.

Results

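Intronic peaks are stretches of open chromatin that the authors' annotation column places in an intron of a gene. They were taken by that annotation alone, 1 row per position, from the 4 deposited tables of differential accessibility. No measured value entered that choice, though the tables hold only peaks the authors retained. Merged over the tables, 1833 of 13858 loci were intronic, beside 8330 at promoters and 3315 in distal intergenic sequence. The intronic peaks made up 750 of 7826 peaks (9.58%) in the table of genotypes before partial pancreatectomy (PPx, an operation that takes out some of the pancreas) and 1670 of 13111 (12.7%) in the table of genotypes after it. They made up 891 of 8070 (11%) in the table of control islets over time and 1519 of 12767 (11.9%) in that of βKO islets over time.

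Islets of 15 male mice aged 3 months were profiled by ATAC-seq, an assay in which a transposase inserts sequencing adapters into accessible DNA. Every mouse carried floxed Arid1a alleles (Arid1aFl/Fl) and MIP-rtTA, a doxycycline-dependent activator driven by an insulin promoter, and doxycycline was given at 1 g/L in drinking water for 2 weeks. The interval from doxycycline to PPx is given as 1 week. The control mice had no Cre (4 before PPx, 4 at 6 days after PPx), and the Arid1a βKO mice also carried TRE-Cre (3 before PPx, 4 at 6 days after PPx). The strain background is not given in the sources used here. The activator is made where the insulin promoter is active, while the libraries came from 40000 cells of whole islets, which also hold α, δ, endothelial and other cells. How complete the deletion was is not measured by these tables, and no Arid1a intronic peak was listed. In such bulk islets, a change in the share of a cell type and a change of signal per cell cannot be told apart.

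Introns are removed from the transcript by splicing, yet their DNA often holds enhancers, stretches that bind transcription factors and act on the promoter of the same or a neighbouring gene. The first intron lies next to the promoter and is often linked with regulatory elements. ARID1A is the DNA-binding subunit of the BAF form of the SWI/SNF complex, which slides and ejects nucleosomes and is known to act at enhancers as well as promoters.

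Most of the intronic peaks lay deep inside long genes. In the table of genotypes after PPx, 1408 peaks (86% of the 1638 whose gene had known ends) were 10000 bp or more from both ends of the annotated gene. The 1670 peaks fell in 1194 genes, of which 900 held 1 peak, 196 held 2 and 98 held 3 or more. The median length of genes with 3 or more was 424 kb, against 105 kb for genes with 1. Some intronic peaks nonetheless cover a start site: 15 windows of 250 bases upstream of a RefSeq start lay inside an intronic peak, 8 of them belonging to the gene whose intron was annotated. The letters GGGCGG, the GC box bound by Sp1-family factors, stood on either strand in 7 of those 15 windows, against 32.7% of all 32851 start windows of that length. The windows of Ankrd11 and 2810013P06Rik, both among the 7, overlap on opposite strands inside the same peak, so their shared bases were counted for each. The letters TGANTCA (AP-1), TAATTA (homeobox) and TGTTTAC (forkhead) stood in 0 of the 15, against 6.75%, 4.84% and 3.17% of all windows, and CCACNAG (a part of the CTCF motif) stood in 1, against 12.7%. The windows of Bcar1, an adhesion adaptor gene, and Cast, the calpastatin gene, are shown because the first peak opened in both comparisons that hold βKO islets after PPx and the second, a stronger peak of the same kind, did not pass in either. Both are the 250 bases upstream of the start, 5′ to 3′ on the minus strand of GRCm38.p6 (RefSeq), from chr8:111732137-111732386 and chr13:74770737-74770986, and capitals mark GGGCGG or its reverse complement.
Bcar1: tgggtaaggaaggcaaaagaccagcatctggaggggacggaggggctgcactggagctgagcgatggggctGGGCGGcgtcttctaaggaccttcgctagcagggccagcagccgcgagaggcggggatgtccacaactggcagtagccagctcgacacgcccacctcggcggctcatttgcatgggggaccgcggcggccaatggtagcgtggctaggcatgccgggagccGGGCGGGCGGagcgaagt
Cast: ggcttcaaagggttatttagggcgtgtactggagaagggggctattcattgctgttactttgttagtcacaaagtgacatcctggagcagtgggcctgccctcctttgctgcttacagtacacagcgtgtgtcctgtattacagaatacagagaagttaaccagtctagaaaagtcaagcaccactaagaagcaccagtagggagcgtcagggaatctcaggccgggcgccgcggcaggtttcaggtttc

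The Bcar1 window had 67.2% G and C with 21 CpG dinucleotides, and the Cast window 50.8% with 7, while the median of all start windows was 52.4% with 6. The Bcar1 peak is annotated in intron 1 of 6. Its log2 concentration (log2 of the mean normalized read count of a group) was 3.05 in control against 4.24 in βKO islets after PPx (change 1.19, FDR 0.0429 in the authors' deposited table). Over time in βKO islets it went from 2.48 to 4.24 (change 1.76, FDR 0.0353 in the authors' deposited table). The Cast peak, annotated in intron 3 of 30, was after PPx at 4.83 in control against 5.48 in βKO islets (change 0.65, FDR 0.109 in the authors' deposited table). No genome sequence was used here, so the bases of the other intronic peaks are not shown.

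Each table gives 1 value per group and no value per library, so the spread over mice enters only through the authors' p-values. A change below is the second group less the first, on the log2 scale. A peak opened or closed where the FDR of the authors' deposited table was under 0.05, and it was detected in a library where the authors called a peak there. The median change over all peaks was 0, 0.61, 0.16 and 0.83 in the 4 tables in the order above. The normalization of the libraries is not given in the sources used here, so how far these shifts come from scaling was not tested, and medians are also given relative to them. The tables also differ in scale for some groups. At intronic peaks of identical position, the βKO group before PPx read 0.23 lower in the table over time than in the table of genotypes (17 peaks, median -0.23) and the control group before PPx 0.18 lower (41 peaks, median -0.18). The control group after PPx read 0.05 higher (33 peaks), and the βKO group after PPx read the same in both tables (418 peaks).

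Before PPx the intronic peaks were lower in βKO islets than in control islets, while the peaks of the whole table were centred on 0. The median log2 concentration of the 750 intronic peaks was 3.79 in control and 3.56 in βKO islets. The median change was -0.21 (quartiles -0.58 and 0.09), and 67.9% of intronic peaks had a lower value in βKO islets. None passed, and the FDR was 1 for each in the authors' deposited table. At least 2 libraries detected 491 of the intronic peaks (65.5%) in control and 370 (49.3%) in βKO islets, with 4 control and 3 βKO libraries. At promoters these shares were 74.6% and 78.1%. Peaks detected in control islets alone were listed too, so at introns the listing may favour peaks that are higher there. How far this moves the intronic values before PPx was not tested. At an unadjusted p under 0.05, 54 intronic peaks (7.2%) were lower and 8 (1.07%) higher, where 2.3% of all peaks were lower and 0.843% higher. Promoter peaks had a median change of 0.04 and distal intergenic peaks of -0.12. At the same unadjusted p, 4.32% of distal intergenic peaks were lower and 0.976% higher. At promoters 0.986% were lower and 0.767% higher. The gap to promoters was also there among peaks of like strength. Over 4 equal classes of log2 concentration, from the weakest to the strongest, the medians were -0.22, -0.25, -0.23 and -0.07 at introns and -0.04, -0.06, 0.02 and 0.14 at promoters. Distal intergenic medians, at -0.12, -0.19, -0.12 and -0.01, lay between those of introns and promoters in each class.

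**Figure D1:**
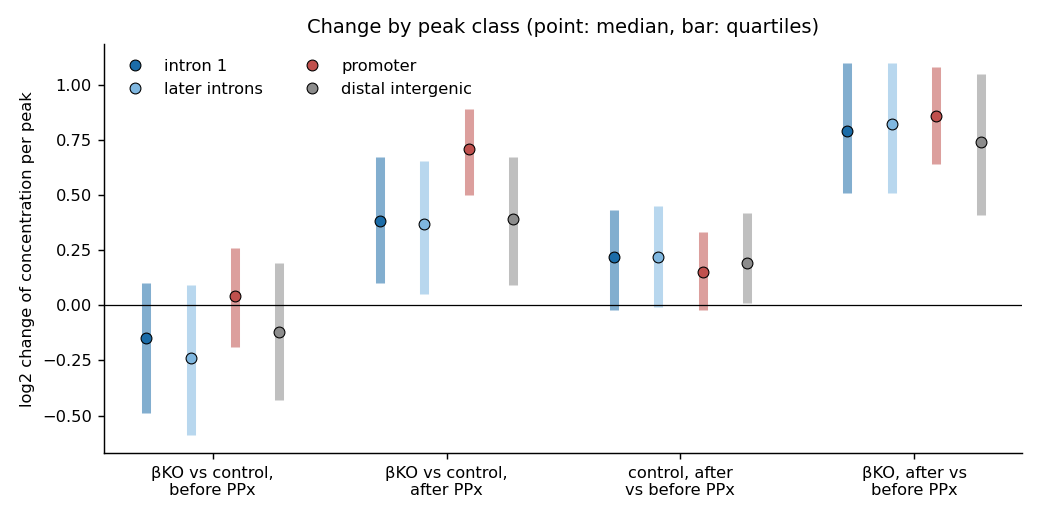
Log2 change of concentration per peak (vertical axis) in the 4 comparisons for peaks in intron 1, later introns, promoters and distal intergenic sequence. Points are medians over peaks and bars span the quartiles. Before PPx the intronic medians lie below 0, after PPx they lie at 0.38 and 0.37 against 0.71 for promoters, and in βKO islets over time the classes lie between 0.74 and 0.86.

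The 6 intronic peaks of smallest p before PPx were all lower in βKO islets. The first was in intron 2 of 7 of Slc30a8 (chr15:52315984-52316584, mm10), the gene of the zinc transporter of insulin granules. Its value was 4.51 in control and 3.06 in βKO islets, and it was detected in 4 of 4 control and 0 of 3 βKO libraries (p = 0.0011, FDR 1 in the authors' deposited table). Pde4d, which encodes a cAMP-degrading enzyme, had a peak in intron 3 of 16 that was at 4.09 against 2.42 (p = 0.0012, FDR 1 in the authors' deposited table). In Kirrel3, an adhesion molecule gene, the peak in intron 2 of 16 was at 4.51 against 3.19, detected in 4 of 4 against 0 of 3 libraries (p = 0.00233, FDR 1 in the authors' deposited table). Senp7, the gene of a SUMO protease, held a weaker peak at 3.58 against 1.63, and Ubac2 one at 4.23 against 2.91. Levels and detection went opposite ways at Tmem267. That peak was at 4.75 in control and 3.40 in βKO islets, yet it was detected in 0 of 4 control and 3 of 3 βKO libraries.

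Of the 5 strongest intronic peaks of control islets before PPx, 3 had values within 0.20 of each other in the genotypes. They lay in introns of Cdk8 (7.38 in control, 7.18 in βKO), a kinase of the Mediator complex, Filip1l (7.16 and 7.12) and Cldn34d (7.03 and 6.92), and all libraries of both groups detected them. E030030I06Rik (6.59 and 5.94) and Kctd16 (6.46 and 5.72) had changes of -0.65 and -0.74, with unadjusted p of 0.31 and 0.211 in the authors' deposited table.

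After PPx the direction was the reverse. Of the 1670 intronic peaks, 78.1% were higher in βKO islets, with a median of 3.30 in control and 3.63 in βKO islets and a median change of 0.37 (quartiles 0.06 and 0.66). Opened intronic peaks numbered 34 (2.04%), where 9.88% of all peaks opened. No intronic peak closed, where 0.0839% of all peaks did. At least 2 libraries detected 545 of the peaks (32.6%) in control and 1366 (81.8%) in βKO islets. Peaks detected in βKO islets alone were listed too, so the listing itself favours peaks that are higher there. How far this moves the share higher, the median and the number opened was not tested. Promoter peaks had a median change of 0.71 with 1154 opened (14.3%), and distal intergenic peaks 0.39 with 96 opened (3.17%). In every strength class the intronic median lay below that of promoters. From the weakest to the strongest, the intronic medians were 0.35, 0.34, 0.40 and 0.46 and the promoter medians 0.59, 0.63, 0.70 and 0.77. Distal intergenic medians, at 0.35, 0.335, 0.42 and 0.535, lay nearer to those of introns. The share opened rose over the same classes from 0 to 1.48%, 3.81% and 9.09% at introns and from 0 to 5.1%, 14.9% and 26.4% at promoters.

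Relative to the median of each table, the intronic position was nearly the same at both times, -0.21 before PPx and -0.24 after it. Promoters made up 70% and 61.4% of the peaks behind those medians. Distal intergenic peaks also lay below them, at -0.12 against 0 before PPx and 0.39 against 0.61 after it. Only 28% of intronic peaks lay above the median of all peaks after PPx, against 31.2% before, although all 34 opened peaks lay above it. Which sign the genotype difference has at introns after PPx therefore depends on whether the shift of the whole table is counted.

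**Figure D2:**
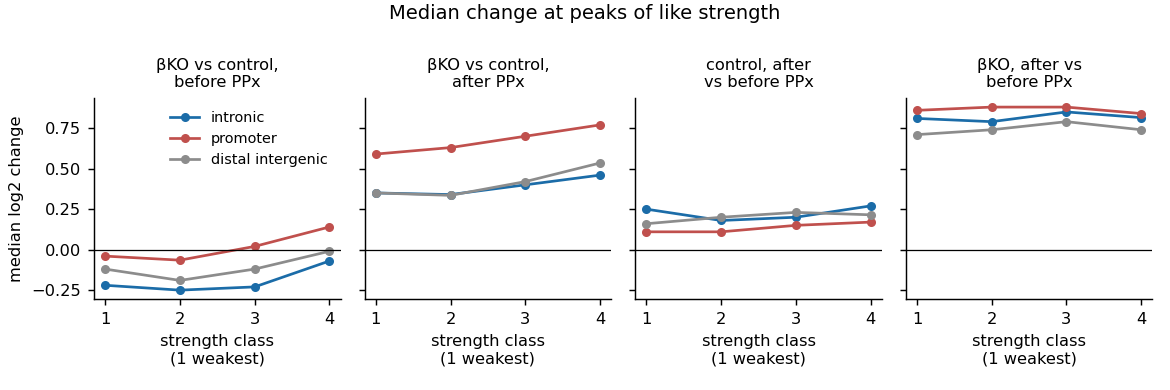
Median log2 change (vertical axis) at intronic, promoter and distal intergenic peaks in each class of log2 concentration, from the weakest (1) to the strongest (4), with 1 panel per comparison. In both genotype panels the intronic line lies below the promoter line in all 4 classes, and in the panel of βKO islets over time the intronic line stays between 0.79 and 0.85.

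The 34 opened peaks lay in 33 genes, with changes from 0.85 to 2.58 (median 1.17). Their levels ran from 2.01 to 5.09 in control and from 4.14 to 6.14 in βKO islets. Of the 34, 11 were detected in no control library and 21 in all 4 βKO libraries. Ak5, which encodes an adenylate kinase, had the largest change, at a peak in its intron 5 of 13 (chr3:152624474-152625074, mm10). This peak was at 2.01 in control and 4.60 in βKO islets, detected in 0 of 4 and 3 of 4 libraries (change 2.58, FDR 0.000605 in the authors' deposited table). A stronger Ak5 peak in intron 10, 130 kb away, was at 4.30 and 5.26 (change 0.96, FDR 0.0486 in the authors' deposited table), which made Ak5 the only gene with more than 1 opened intronic peak here.

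Syt1, the calcium sensor of vesicle release, had a peak in intron 5 of 11 at 2.51 in control and 4.14 in βKO islets (change 1.64, FDR 0.0227 in the authors' deposited table). Rapgef4, which encodes the cAMP sensor Epac2 that potentiates insulin secretion, had one in intron 4 of 30 at 3.27 and 4.58 (change 1.31, FDR 0.0272 in the authors' deposited table). Pde4d had a peak in intron 3 at 3.67 and 4.93 (change 1.26, FDR 0.0289 in the authors' deposited table), 21.4 kb from the Pde4d peak described before PPx. Acvr1c, the gene of the activin-type receptor ALK7, held the strongest of the 34 in intron 2 of 8, at 5.09 and 6.14 and detected in all 4 libraries of both groups (change 1.05, FDR 0.0286 in the authors' deposited table). The Acvr1c values thus differed in level, not in detection.

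Others of the 10 largest changes lay in genes of various roles. Pcdh9, a protocadherin gene, had a peak in intron 3 of 3 at 2.87 in control and 4.37 in βKO islets, detected in 0 of 4 and 4 of 4 libraries (change 1.50, FDR 0.0212 in the authors' deposited table). Marchf4, a membrane ubiquitin ligase gene, rose from 2.51 to 4.16, Oxr1 from 2.80 to 4.25, Pdzrn3 from 3.55 to 4.88, Ano3 from 3.00 to 4.30 and Aopep from 2.91 to 4.20, at FDRs from 0.0212 to 0.0396 in the authors' deposited table. Among the 34 were also neighbouring genes on chromosome 2, Elp4 (intron 9 of 9, 4.00 and 4.93, FDR 0.0425) and Immp1l (intron 5 of 6, 3.97 and 5.12, FDR 0.0393), in the authors' deposited table. Introns of Elp4 are known to hold long-range enhancers of Pax6, a transcription factor of islet cells. Elp4 and Immp1l were named after their values were seen, as was Bcar1.

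**Figure D3:**
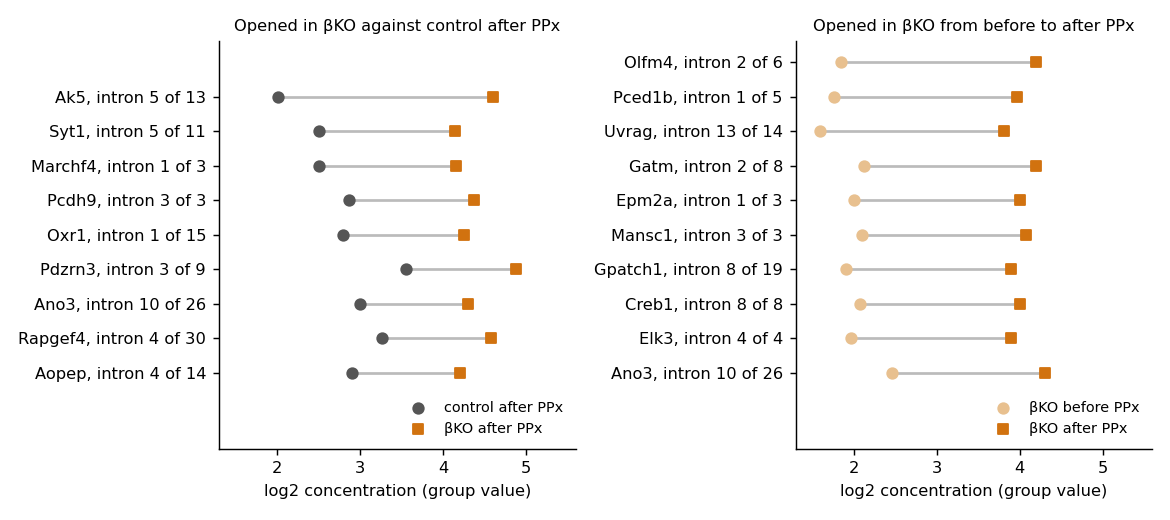
Log2 concentration (horizontal axis, authors' group values) of opened intronic peaks among the 10 with the largest changes, in βKO against control islets after PPx (left) and in βKO islets after against before PPx (right). Grey lines join the groups. Before PPx the βKO values at right lie between 1.60 and 2.46, and the βKO values after PPx in both panels lie between 3.81 and 4.88.

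In control islets the intronic peaks were slightly higher after PPx. The median went from 3.54 before to 3.74 after PPx over 891 peaks, with a median change of 0.22 (quartiles -0.02 and 0.45), and 72.7% were higher. The median of all peaks moved by 0.16, which leaves 0.06 for introns. None passed, the smallest FDR being 0.999 in the authors' deposited table. At an unadjusted p under 0.05, 23 (2.58%) were higher and 2 (0.224%) lower, where 2.43% of all peaks were higher and 0.0991% lower. The smallest p belonged to Gm16090, at 2.33 before and 3.82 after PPx (p = 0.00278, FDR 0.999 in the authors' deposited table). Rasgrf2, an exchange factor gene for Ras, had a peak in intron 2 of 33 that was detected in all 4 libraries at both times and stood at 4.19 and 4.97 (p = 0.0165, FDR 0.999 in the authors' deposited table). The others of the 6 smallest p, in Abca15, Fmnl2, Dpp10 and Gm12637, were also higher after PPx, by 0.89, 1.26, 0.94 and 0.93.

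In βKO islets most intronic peaks were higher after PPx. The median went from 2.93 to 3.69 over 1519 peaks, the median change was 0.82 (quartiles 0.51 and 1.10) and 93.8% were higher. The median of all peaks moved by 0.83, so introns lay 0.01 below it. Opened intronic peaks numbered 69 (4.54%), where 7.44% of all peaks opened, and no intronic peak closed. At least 2 libraries detected 372 of the peaks (24.5%) before and 1367 (90%) after PPx, with 3 libraries before and 4 after. Peaks detected only after PPx were listed too, so here the listing favours peaks that are higher after it. The size of that effect was not tested. Promoters had a median change of 0.86 with 781 opened (9.72%), and distal intergenic peaks 0.74 with 91 opened (3.18%). The medians by strength at introns, 0.81, 0.79, 0.85 and 0.82 from weak to strong, were close to those at promoters (0.86, 0.88, 0.88 and 0.84).

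The 69 opened peaks lay in 68 genes, with changes from 1.09 to 2.36 (median 1.58). No library before PPx detected 35 of them, and all 4 libraries after PPx detected 36. Olfm4, the gene of the secreted glycoprotein olfactomedin 4, had the largest change. Its peak in intron 2 of 6 (chr14:80008462-80009062, mm10) was at 1.85 before and 4.20 after PPx, detected in 0 of 3 and 4 of 4 libraries (change 2.36, FDR 0.0192 in the authors' deposited table). Uvrag, an autophagy gene, went from 1.60 to 3.81, Gatm, which makes the precursor of creatine, from 2.12 to 4.20, and Epm2a, which encodes the glycogen phosphatase laforin, from 2.01 to 4.01, at FDRs of 0.029, 0.0282 and 0.0289 in the authors' deposited table. Transcription factor genes were represented by Creb1, the cAMP response factor, in intron 8 of 8 (2.08 to 4.01, FDR 0.0313 in the authors' deposited table) and by Elk3, an ETS factor, in intron 4 of 4 (1.97 to 3.89, FDR 0.0435 in the same table). Pced1b, Mansc1, Gpatch1 and Ano3 completed the 10 largest, with changes of 2.21, 1.99, 1.99 and 1.84. Dennd11 alone held more than 1 of the 69, a pair in intron 1 of 8 that went from 2.97 to 4.56 and from 3.44 to 4.94 (FDR 0.0374 and 0.0351 in the authors' deposited table).

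Lists of gene roles had few members among the 69, named here singly. The Slc30a8 peak went from 2.88 to 4.43 in βKO islets (change 1.56, FDR 0.0484 in the authors' deposited table) and was detected in 0 of 3 and 2 of 4 libraries. Cpe, the gene of the carboxypeptidase that trims proinsulin, had a peak in intron 1 of 8 that went from 4.98 to 6.07 (change 1.09, FDR 0.0467 in the authors' deposited table). Eif2ak3, which encodes the endoplasmic reticulum stress kinase PERK, went from 3.20 to 4.72 in intron 2 of 16 (change 1.52, FDR 0.0353 in the authors' deposited table). Arid1b, the paralogue of Arid1a, went from 2.38 to 4.10 in intron 8 of 18 (change 1.72, FDR 0.0353 in the authors' deposited table).

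Both comparisons that hold the βKO libraries after PPx share those 4 libraries, so their opened peaks are not independent. The peaks opened in both numbered 12, which is 35.3% of the 34 and 17.4% of the 69, and included peaks in Acvr1c, Ak5, Ano3, Arid4b, Bcar1, Elp4, Fryl, Gatm, Immp1l, Pdzrn3 and Rapgef4. The opened peaks were also read in the comparison that shares no library with theirs. Of the 34 peaks opened in βKO islets after PPx, 29 were found in the table before PPx, where their median change was 0.28 (range -0.65 to 1.12), with 19 higher and 10 lower in βKO islets, against -0.21 for all 679 intronic peaks found in both tables. Of the 69 peaks opened over time in βKO islets, 56 were found in the table of control islets over time. Their median change there was 0.20 (range -0.42 to 0.87), against 0.22 for all 728 intronic peaks found in both.

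First introns and later introns had medians within 0.09 of each other in all 4 comparisons, the widest gap being that before PPx. Before PPx the 200 peaks in intron 1 had a median change of -0.15 and the 550 in later introns -0.24, a difference of 0.09 within a range of -0.03 to 0.19 (from the 95% intervals of both medians, which treat peaks, not mice, as the units, and give a wider range than a 95% interval of the difference itself). Intron 1 stood above later introns before PPx at each distance from the nearer gene end, with -0.12 and -0.20 under 10 kb, -0.14 and -0.23 from 10 to 100 kb, and -0.18 and -0.30 further in. At an unadjusted p under 0.05, 13 in intron 1 and 41 in later introns were lower in βKO islets. After PPx the medians between genotypes were 0.38 (438 peaks) and 0.37 (1232), and 9 (2.05%) and 25 (2.03%) opened. Over time the medians were 0.22 and 0.22 in control islets. In βKO islets they were 0.79 (401 peaks) and 0.82 (1118), with 17 (4.24%) and 52 (4.65%) opened. Ranges for the differences were -0.07 to 0.09, -0.08 to 0.09 and -0.13 to 0.07, in that order. Within strength classes before PPx, intron 1 stood above later introns in the 3 weaker classes (-0.11 and -0.28, -0.11 and -0.27, -0.22 and -0.24) and below them in the strongest (-0.16 and -0.05). Intron 1 made up 26.5% of the opened peaks between genotypes after PPx and 26.2% of all intronic peaks there, and 24.6% against 26.4% over time in βKO islets.

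At introns, the signed βKO minus control difference was higher after PPx than before it for most peaks, while no single peak passed the test of that change. Of the intronic peaks after PPx, 679 had a partner in the table before PPx, and the tables hold libraries of different mice. In the full lists, detection in at least 2 libraries was more frequent in control before PPx (65.5% against 49.3%). After PPx it was more frequent in βKO islets (81.8% against 32.6%). How far the listing moves the values below was not tested. The median difference went from -0.21 to 0.37, and the median over peaks of the change between them was 0.62, against 0.64 over all 7503 matched peaks. A normal test was made from the deposited changes and p-values, with Benjamini-Hochberg adjustment over the 7503. It passed 0 intronic peaks and 0 of all peaks, the smallest adjusted p being 0.2 at introns and 0.0935 overall. At an unadjusted p under 0.05, 83 intronic peaks (12.2%) had a larger and 1 (0.147%) a smaller βKO minus control difference after PPx, where 14.3% of all matched peaks were larger and 0.12% smaller. Relative to the median of each table, those numbers were 6 larger and 16 smaller, and the smallest adjusted p was 1.

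The 5 peaks of smallest p in that test all went from lower to higher in βKO islets. At Olfm4, control and βKO islets were at 3.60 and 2.07 before PPx and at 3.15 and 4.20 after it, so the difference went from -1.53 to 1.06 (change 2.59, standard error 0.72). Gpatch1 showed the same order, with 3.63 and 2.14 before and 3.07 and 3.90 after. In Slc17a6, the gene of a vesicular glutamate transporter, the values were 4.76 and 3.64 before and 3.93 and 4.64 after. At 1700026J12Rik they were 4.64 and 3.57, then 3.82 and 4.63. At intron 10 of Ak5 they were 4.67 and 4.02, then 4.30 and 5.26. Over time, these 5 peaks changed by -0.23, -0.42, -0.55, -0.60 and -0.15 in control islets and by 2.36, 1.99, 1.21, 1.27 and 1.52 in βKO islets, in the tables that hold those same libraries.

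**Figure D4:**
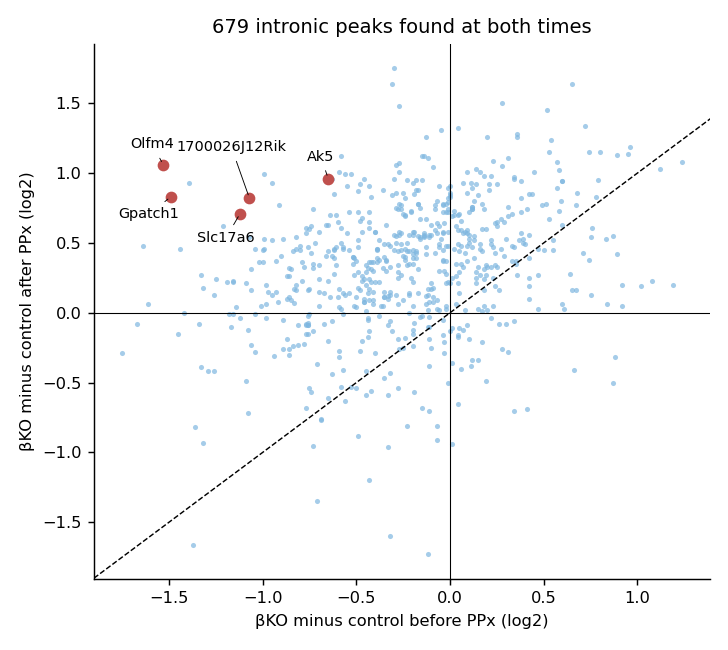
Difference of βKO less control log2 concentration before PPx (horizontal axis) and after PPx (vertical axis) for the 679 intronic peaks found at both times, 1 point per peak. The dashed line marks equal differences, and red points are the 5 peaks of smallest p for a change of the difference, of which Olfm4 went from -1.53 to 1.06.

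The intronic peaks that were lower in βKO islets before PPx were read again after it. They were chosen by their low values before PPx, so some move towards 0 is expected from the choice itself. Of the 54 intronic peaks lower before PPx at an unadjusted p under 0.05, 46 were found after PPx. Their median difference was -1.15 before and 0.10 after (quartiles -0.09 and 0.36), 19 (41.3%) were still lower in βKO islets and 0 opened. Of all 679 intronic peaks found at both times 29 opened, a share that also allows 0 of 46. The other 633 had medians of -0.17 before and 0.39 after, with 121 (19.1%) lower and 29 opened. At Slc30a8 the control and βKO values after PPx were 4.49 and 4.34 (FDR 0.74 in the authors' deposited table), and at Kirrel3 they were 4.66 and 3.73 (FDR 0.0687 in the same table).

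The gene lists give the intronic peaks by role. Of 30 genes of β cell identity, 4 had an intronic peak after PPx and 0 of those peaks opened between genotypes. That count is also allowed by the 2.04% opened over all intronic peaks. Rfx6, a transcription factor of islet development, was at 4.40 in control and 3.67 in βKO islets before PPx and at 3.88 and 4.23 after (FDR 1 and 0.405 in the authors' deposited table). Pcsk2, a prohormone convertase gene, was at 3.39 and 3.97 after PPx, and Abcc8, which encodes the sulphonylurea receptor of the KATP channel, at 3.81 and 3.78 (FDR 0.259 and 0.942 in the authors' deposited table). Over time in βKO islets, the Slc30a8 peak opened and the other 3 did not pass, with changes from 0.35 to 0.81. Over all intronic peaks 4.54% opened in that comparison.

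Genes of exocytosis and secretory granules had 15 intronic peaks in 8 of 32 genes before PPx. Of these 14 were lower in βKO islets, where 67.9% of all intronic peaks were, with a median change of -0.39 against -0.21. At an unadjusted p under 0.05, 2 were lower (Slc30a8 and Ptprn2), where 7.2% of all intronic peaks were. Some of the 15 peaks share a gene, so they are not separate members of the list. Ptprn2, the gene of the granule membrane protein phogrin, was at 4.00 and 2.92 in intron 12 of 22 (p = 0.0234, FDR 1 in the authors' deposited table). The exception was the Syt1 peak in intron 5 that opened after PPx, at 2.82 and 3.48 before it. After PPx the list had 25 peaks in 12 genes, with a median change of 0.46, 20 higher and 1 opened (Syt1), where all intronic peaks had a median of 0.37 with 78.1% higher and 2.04% opened. Over time it had 22 peaks in βKO islets, all higher, with a median of 0.97 and 2 opened (Cpe and Slc30a8), where all intronic peaks had 0.82, with 93.8% higher and 4.54% opened. In control islets the median over 17 peaks was 0.26, against 0.22 over all intronic peaks. Pam, the peptide-amidating enzyme gene, had higher levels than most of the list, 5.44 and 4.85 before PPx and 4.96 and 5.61 after it in intron 12.

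**Figure D5:**
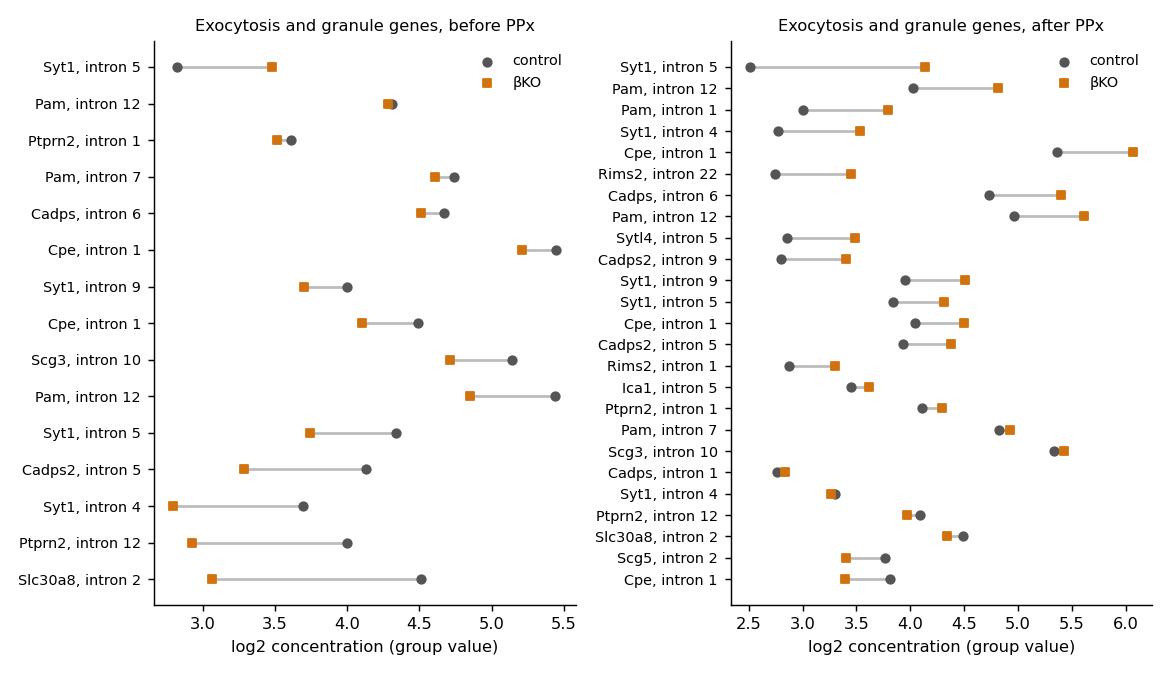
Log2 concentration (horizontal axis, authors' group values) of the intronic peaks of exocytosis and granule genes in control (circles) and βKO islets (squares), before PPx (left, 15 peaks) and after PPx (right, 25 peaks). Rows are peaks, ordered by the difference. At left 14 of 15 squares lie to the left of their circles, and at right 20 of 25 lie to the right. Over all intronic peaks, 67.9% were lower in βKO islets before PPx and 78.1% higher after it.

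Adhesion and guidance genes of neurons held many of the intronic peaks, and their medians and opened counts lay near those of all intronic peaks (after PPx 0.37 and 2.04% opened, over time in βKO islets 0.82 and 4.54%). After PPx, 24 of 40 such genes had 68 peaks, with a median change of 0.32 and 1 opened (Pcdh9), and over time in βKO islets 25 genes had 59 peaks, with a median of 0.73 and 1 opened. Ion channel genes had 24 peaks in 14 of 35 genes after PPx, with a median of 0.23 and 0 opened, a count that 2.04% opened over all intronic peaks also allows. Over time in βKO islets they had 21 peaks, with a median of 0.69 and 1 opened, in Kcnip1, which encodes a subunit of A-type potassium channels (2.50 to 4.30, FDR 0.0303 in the authors' deposited table).

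The signalling lists held few intronic peaks each, to be read against the 2.04% opened, the 78.1% higher and the median of 0.37 over all intronic peaks after PPx. Activin, TGF-beta and BMP genes had 3 intronic peaks after PPx, of which the Acvr1c peak opened. Immediate early and cAMP response genes had 8, with 1 opened (Pde4d). EGF, neuregulin and ERBB genes had 9, Wnt and Notch genes 7, and insulin, IGF and PI3K genes 6, with 0 opened and medians of 0.31, 0.62 and 0.70. Cell cycle genes had 5 peaks, in Ccnd3, Cdk6 and Rb1, all higher in βKO islets after PPx with a median of 0.60 and 0 opened. Of 25 SWI/SNF subunit genes only Arid1b had intronic peaks. Its peaks in introns 4 and 8 were at 3.19 and 4.14 and at 3.55 and 4.18 after PPx (FDR 0.0801 and 0.185 in the authors' deposited table).

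Markers of other cell types had few intronic peaks. Acinar, stromal and Schwann cell lists (15, 12 and 8 genes) had 0 in all 4 tables. After PPx the duct list had 5 peaks, in Cftr and Pkhd1 of 12 genes, with a median change of 0.19. The endothelial list had 3, in Flt1, Tek and Vwf of 13 genes, with a median of -0.11, and the leukocyte list had 1 of 15 genes, Ptprc, with a change of 0.94. None of these peaks opened or closed, which so few peaks would also give at the 2.04% opened over all intronic peaks. The part of other cells in the results above was not tested.

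The genes richest in intronic peaks after PPx were long and showed a wide range within a gene. Ptprd, a receptor phosphatase gene of 2271 kb, had 9, with changes from -0.17 to 0.92 and a median of 0.05. Cntn4, Dlg2 and Pcdh9 had 7 each, with medians of 0.33, 0.29 and 0.31. In Negr1, a neuronal adhesion gene with 6 peaks, changes ran from -1.39 to 1.41, and 0 of the 6 opened. The median standard error of 1 intronic change in this comparison was 0.436.

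The tables list different numbers of peaks, which limits how far their intronic peaks can overlap. Of the 750 intronic peaks in the table of genotypes before PPx, 90.3% overlapped a peak in the table after PPx by at least 1 bp, while 40.7% of the 1670 after PPx overlapped one listed before it. The second share is bounded by the length of the shorter list. Over all 4 tables, 598 of the 1833 loci had an intronic peak in each and 238 in only 1. A table lists only peaks the authors retained for its groups, so an unlisted peak has no value, not a value of 0.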

How the data were processed

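ATAC-seq libraries of islets from 15 mice in 4 groups were sequenced in single 75 bp reads. ChIPseeker, DiffBind, MACS, BWA and cutadapt, and the builds mm10 and GRCm38, are listed in the submitters' processing notes. How they were set and ordered, how libraries were normalized and whether read positions were corrected for Tn5 is not given in the sources used here. Each deposited table holds 1 comparison over peaks of 601 bp. Per the file headers, its log2 values are the concentration of each group and the fold between groups, which the authors gave as 1 value over all libraries of a group. The p-value and FDR per peak, and the number of libraries per group in which a peak was called, are also deposited per the file headers. Depth per library is unknown, so no interval from counts is given.

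Repeated rows of a position (1197, 5281, 1337 and 4588) were reduced to 1, and annotations starting with "Intron" were kept. The fold equalled the difference of group values within 0.01 and was turned to βKO less control or after less before. Tables were matched by an overlap of 1 bp. The test of a change in the genotype difference took each standard error from the deposited fold and p-value, since library values were not used here, with a 2-sided normal test and Benjamini-Hochberg adjustment. For peaks with p above 0.5 or a change under 0.1 the error was read from peaks of like concentration. The test was also run on simulated data that held no shift of the whole table, unlike the data here. That run is not used as support. Python 3.11.15, pandas 2.3.3, numpy 2.4.6, scipy 1.17.1 and matplotlib 3.10.9 were used.

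Named peaks were, in each comparison with more than 5 opened, the 10 with the largest change outside predicted genes and genes with 2 or more opened peaks. In the others the 6 of smallest p were named. Added were the 5 strongest peaks of control islets before PPx, the 5 of smallest p for the changed difference, all intronic peaks of β cell identity and SWI/SNF genes and up to 3 opened peaks per other list. The members and lists were chosen with earlier results of these data known. Start windows came from RefSeq (GRCm38.p6). Results for a few genes are not reported here. Peak sequences were planned but not used, as no genome was used here. Alternatives were other FDR thresholds, Benjamini-Hochberg adjustment over all listed peaks, all rows, no predicted genes, no weak peaks, means, distance from gene ends and an overlap of 301 bp.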

Additional observations from a re-analysis of the deposited data

How the results depend on the processing

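The number of intronic peaks opened in βKO against control islets after PPx was 34 and depended on the threshold: 1 (Ak5) at an FDR of 0.01 and 111 at 0.1. Benjamini-Hochberg adjustment of the deposited p-values over all listed peaks gave 14, and the cause was not tested. The deposited FDR was 1 for 879 intronic peaks there, among them the Creb1 peak with an unadjusted p of 0.000362 in the authors' deposited table. Counting all rows as deposited gave 73. Over time in βKO islets the 69 became 0 at an FDR of 0.01, 308 at 0.1 and 130 with all rows, and 51 with the adjustment over all listed peaks. Of 32 opened peaks named, 25 passed under that adjustment and 1 at an FDR of 0.01. Leaving out predicted genes or the weakest of 4 strength classes gave 32 and 34, and 64 and 67. The counts of 0 before PPx and in control islets, the medians, and the difference of intron 1 from later introns stayed within their intervals or counts under every alternative run. The planned distance from a start site was replaced, after the files were seen, by 10000 bp from both gene ends, since the start sites used here covered too few genes. No paired analysis was possible because the labels share no replicate numbers between groups and the tables hold 1 value per group, and for the same reason no library could be left out. The median standard error of an intronic change lay between 0.417 and 0.546 over the 4 tables, which limits what a single peak can show.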
